A study of Homo sapiens with 4 samples.

Results

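The genes described here are 39 genes of homologous recombination and of the Fanconi anemia pathway, taken by gene symbol from a table of 48162 genes measured by RNA-seq in MDA-MB-231 cells. All 39 symbols were found, and all 39 genes had a mean of at least 1 FPKM (fragments on the gene scaled by its length and by the library's total of fragments on genes) over the 4 libraries, the minimum for testing that 12080 genes in all passed. MDA-MB-231 is a human breast cancer line of basal, mesenchymal type. The cells received MGH-CP1, an inhibitor of the palmitoylation of TEAD transcription factors, or vehicle control for 24 h, with 2 libraries per condition. The sample labels give the dose as 10 µM, whereas the methods print the same number in mM. The treated and control libraries share the line and its culture medium and carry no further labelled alteration, and the labels do not say whether the libraries of a condition came from separate cultures, so the p-values measure the spread between these libraries, which may be technical. The design asks how the transcripts of the line changed when TEAD was inhibited.

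Homologous recombination repairs broken DNA by copying the intact sister chromatid, and is therefore used in S and G2 phase. Nucleases trim the broken ends, BRCA1 and BRCA2 with their partners prepare the trimmed strand for invasion of the sister duplex, and helicases and nucleases take the joined molecules apart. The Fanconi pathway clears crosslinks between DNA strands at stalled replication forks: a core complex ubiquitinates FANCD2 and FANCI, and the lesion is then passed to nucleases and to recombination. Cells that lack these routes are known for their sensitivity to crosslinking agents and to PARP inhibitors.

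After MGH-CP1, 31 of the 39 genes fell and 0 rose at an adjusted p under 0.05 (limma on log2(FPKM + 1), Benjamini-Hochberg over all genes tested). The share that fell was 79.5%, against 23.8% of all genes tested, and the share that rose was 0 against 27.1% of all genes. At an unadjusted p under 0.05, 33 members were lower and 0 higher in limma, against 26.9% and 30.3% of all genes tested, and voom, a related limma fit on fragment numbers, also gave 0 higher, against 30.9% of all genes. On the log2(FPKM + 1) scale the largest falls were those of EXO1, RBBP8, BRCA2, BRIP1, RAD51AP1 and BLM, which trim ends, promote strand invasion or unwind joint molecules. The 8 genes that did not pass the test were ATM, CHEK2, RAD51B, RAD52, WRN, EME1, FANCF and FANCL.

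The members' log2 fold changes ran from -1.01 for EXO1 to 0.03 for RAD52, with a median of -0.43 (SD 0.0364 over the 4 possible treated-to-control library pairs, which are not independent). The median of all genes tested was 0.01. Since the pseudocount of 1 shrinks changes at low FPKM, the median of the members was -0.49 as a ratio of mean FPKM. In percent of the vehicle control mean, the members' FPKM after MGH-CP1 ranged from 42.3% for BRCA2 to 103% for RAD52 with a median of 71.0%, and 12 members were under 60%. A fall of at least 0.5 on the log2(FPKM + 1) scale together with an adjusted p under 0.05 was reached by 16 members, and by 6.16% of all genes tested. With the fall read from the ratio of mean FPKM, 19 members reached it. The shares of all genes under 60% of vehicle and at this ratio cut are not reported here.

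In 34 of the 39 genes both MGH-CP1 libraries lay below both vehicle control libraries, and in 0 both lay above; among all genes tested these shares were 37.4% and 39.8%. For a gene by itself, 2 libraries against 2 give an exact permutation p of 0.333 at best (two-sided), so the calls depend on limma's pooling of variance across genes. With an ordinary per-gene test that shares no variance, 27 members were lower and 0 higher at an unadjusted p under 0.05, against 19.6% and 21.4% of all genes tested, but 0 passed after adjustment, the smallest adjusted p being 0.0524. MGH-CP1 replicate 1 held the lowest FPKM in 29 members and MGH-CP1 replicate 2 in 9, and replicate 1 was below replicate 2 in 30 of the 39, against 49.0% of all genes tested. When any of the 4 libraries was omitted, the fewest members were called lower without MGH-CP1 replicate 1, and so were the fewest of all genes. The members' median log2 fold change was then -0.43. Some of the 31 calls were lost when a library was omitted.

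**Figure D1:**
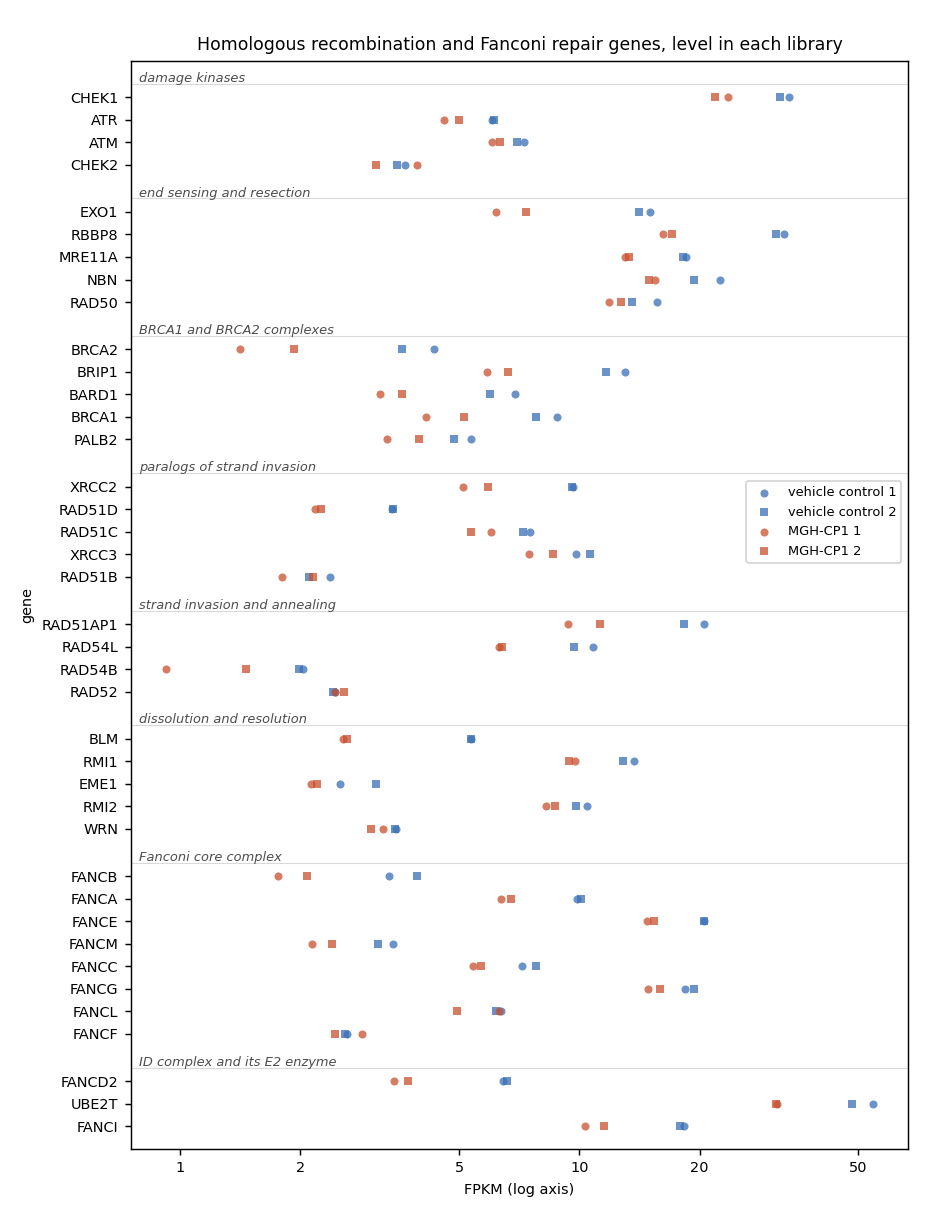
FPKM (log axis) of the 39 genes in each of the 4 libraries, grouped by role and ordered by fold change within a group; circles are replicate 1 and squares replicate 2, blue for vehicle control and orange for MGH-CP1. Orange lies to the left of blue without overlap in 34 genes, and the points are mixed in CHEK2, RAD51B, RAD52, FANCL and FANCF.

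A member held between 51 and 2981 fragments in a library, out of 25455533 and 25508824 gene-assigned fragments with vehicle and of 17997221 and 17577930 with MGH-CP1. With all libraries thinned to equal depth, 31 members were again called lower, against 2794 of 12072 genes tested. Mitochondrial transcripts took 0.447% and 0.419% of the fragments in the vehicle control libraries and 1.57% and 1.53% after MGH-CP1. The TEAD-YAP target genes CYR61, CTGF and ANKRD1 all fell. Of 7 markers of the line 6 passed the minimum level, the exception being SPARC, while of the luminal markers ESR1, PGR and FOXA1 were near 0, CDH1 was under 1 FPKM, and GATA3 and ERBB2 passed the minimum but not the test; of the markers of other cell types CD3E was listed at 0, PTPRC at most 0.0321 FPKM, and ALB at 0 in both vehicle control libraries and 0.0737 and 2.56 FPKM after MGH-CP1. The part of the depth, the mitochondrial share and the ALB signal in the members' falls was not tested. Without the library of the high ALB value (MGH-CP1 replicate 2) the members' median log2 fold change was -0.45.

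The members' promoters are shown because 2 kinds of regulator bear on the comparison: TEAD, which MGH-CP1 is directed at, and E2F, which is known to drive genes of DNA replication and repair. RefSeq promoter windows of 250 bases before to 50 after a start site (GRCh38.p14) were at hand for 34 members, 47 windows in all; NBN, RAD54B, WRN, FANCI and RMI2 had no entry. The words TTTCCCGC, TTTCGCGC, TTTGCCGC and TTTGGCGC, searched on both strands as E2F words, occurred in 6 of the 34 members (17.6%), against 3.99% of 27305 genes with a window, 6.83% of the 8495 of them that were tested and 10.1% of the 2152 called lower. All 6 (EXO1, FANCA, FANCC, FANCD2, RMI1 and XRCC2) fell after MGH-CP1, and of all 34 members with a window 27 fell. The TEAD word CATTCC, also on both strands, occurred in 6 members (17.6%), against 16.7% of all genes with a window and 15.1% of those tested; the 6 were CHEK1, EXO1, FANCA, FANCM, RAD51B and RAD51C, of which RAD51B did not pass the test. The words of the cell cycle genes homology region, TTTGAA and TTCGAA, were in 4 members (11.8%, against 15.3% of the genes tested), and CCAAT in 16 (47.1%, against 43.6%). Different words shared no letters in any member's window. These are matches of letters only, and binding was not measured. The E2F words stand in capitals in the gene strand, with up to 11 bases on either side:
EXO1 (chr1:241848197-241848226, plus strand): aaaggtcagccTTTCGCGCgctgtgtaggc
FANCA (chr16:89816801-89816830, minus strand): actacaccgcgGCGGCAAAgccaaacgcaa
FANCC, nearer the start (chr9:95317737-95317766, minus strand): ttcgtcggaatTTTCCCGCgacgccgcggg
FANCC, farther from the start (chr9:95317863-95317892, minus strand): ccggggcttccGCGCGAAAccgggaacact
FANCD2 (chr3:10026424-10026453, plus strand): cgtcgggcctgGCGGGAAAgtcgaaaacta
RMI1 (chr9:83980762-83980791, plus strand): ggcgcgagcgcGCGGCAAAtcgggcgggaa
XRCC2 (chr7:152676102-152676131, minus strand): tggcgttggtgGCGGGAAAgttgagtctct

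The TEAD words of the members are printed in the same way, with the word or its reverse complement in capitals, so that their surroundings can be compared; that of FANCA stands near the edge of its window:
CHEK1 (chr11:125626153-125626182, plus strand): tcggagggtggaGGAATGgtaccaggaggt
EXO1 (chr1:241848740-241848769, plus strand): aacgtgtcgtctGGAATGggcttgggggcc
FANCA (chr16:89816874-89816897, minus strand): cccagtCATTCCcggcaggaacca
FANCM (chr14:45135849-45135878, plus strand): aagccagccaatCATTCCcaacggaaactc
RAD51B (chr14:67823370-67823399, plus strand): aaggttctatagCATTCCtttatcagtaat
RAD51C (chr17:58692458-58692487, plus strand): gggaatcaaaacGGAATGgtgcataagtgt

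Among the damage kinases, which signal broken or unreplicated DNA, CHEK1 and ATR fell while ATM and CHEK2 did not pass the test. CHEK1 (ENSG00000149554, chromosome 11 from 125495036 to 125546150 in the deposited coordinates, for which the processing notes name hg19) is the effector kinase that holds back mitosis while replication is incomplete. It had 33.4 and 31.8 FPKM in the vehicle control libraries and 23.5 and 21.9 after MGH-CP1, without overlap between the conditions. Its log2 fold change was -0.50 (SE 0.06, adjusted p = 0.000312, limma), and its promoter was among those with a TEAD word. ATR, the kinase upstream of CHEK1 at stalled forks, had 6.05 and 6.10 FPKM with vehicle and 4.58 and 4.99 with MGH-CP1, a log2 fold change of -0.29 (SE 0.08, adjusted p = 0.0162, limma). The call of ATR rested on the full set of libraries: without vehicle control replicate 1, vehicle control replicate 2 or MGH-CP1 replicate 1 the adjusted p was 0.0571, 0.0589 and 0.0862 (limma) with log2 fold changes of -0.30, -0.29 and -0.24.

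ATM, the kinase activated by DNA breaks, had 7.27 and 7.00 FPKM with vehicle and 6.06 and 6.33 with MGH-CP1. Its libraries did not overlap, but the difference of -0.18 on the log2 scale (95% interval -0.35 to -0.01) had an adjusted p of 0.0740 in limma. CHEK2, the effector kinase downstream of ATM, had 3.65 and 3.49 FPKM with vehicle and 3.93 and 3.09 with MGH-CP1. The conditions overlapped, and the log2 difference was -0.03 with a 95% interval from -0.28 to 0.23. CHEK1 and ATR thus fell, and the intervals of ATM and CHEK2 do not reach the value of CHEK1. The interval of ATM holds the value of ATR (-0.29), and that of CHEK2 ends just short of it. The difference between the genes' fold changes was not tested.

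All 5 genes that sense and trim broken ends fell, EXO1 and RBBP8 by the most on the log2(FPKM + 1) scale. As a ratio of mean FPKM, BRCA2 fell further than either. EXO1 (ENSG00000174371, chromosome 1 from 242011269 to 242058450), the exonuclease of long-range trimming, had 15.0 and 14.1 FPKM in the vehicle control libraries and 6.19 and 7.34 after MGH-CP1. Both treated libraries were far below both controls, with a log2 fold change of -1.01 (SE 0.09, adjusted p = 7.45e-05, limma), and 0.265% of the genes tested fell by more. EXO1 and FANCA were the members with both an E2F word and a TEAD word at their listed starts. In EXO1 these words belong to different listed starts, and in FANCA to the same start. RBBP8 (ENSG00000101773, chromosome 18 from 20378224 to 20606451) encodes CtIP, which starts trimming together with the MRE11 nuclease. It had 32.4 and 31.0 FPKM with vehicle and 16.2 and 17.1 with MGH-CP1, a fall to 52.4% with little spread, and a log2 fold change of -0.89 (SE 0.06, adjusted p = 2.79e-05, limma).

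The MRE11-RAD50-NBN complex, which binds the broken end first, fell less. MRE11A, its nuclease, had 18.5 and 18.2 FPKM with vehicle and 13.0 and 13.3 with MGH-CP1 (log2 fold change -0.45, SE 0.06). NBN, which carries the contact to ATM, had 22.6 and 19.3 FPKM with vehicle and 15.5 and 14.9 with MGH-CP1 (log2 fold change -0.43, SE 0.08). In both genes the conditions were apart. RAD50, the zinc-hook ATPase of the complex, had 15.6 and 13.5 FPKM with vehicle and 11.9 and 12.7 with MGH-CP1, so that the nearest libraries of the conditions differed by less than the vehicle control libraries did. The log2 fold change of RAD50 was -0.23 (SE 0.08, adjusted p = 0.0428, limma), and the call was lost in 3 of the 4 fits with a library left out: -0.13 without vehicle control replicate 1, -0.18 without MGH-CP1 replicate 1 and -0.27 without MGH-CP1 replicate 2, with adjusted p of 0.252, 0.187 and 0.0681 (limma). The summed FPKM of the 5 genes was 104 and 96.1 with vehicle and 62.8 and 65.4 with MGH-CP1.

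All 5 genes of the BRCA1 and BRCA2 complexes fell, and with a median log2 fold change of -0.76 this was the role group with the lowest median. BRCA2 (ENSG00000139618, chromosome 13 from 32889611 to 32973805), which prepares the trimmed strand for invasion, had 4.31 and 3.59 FPKM in the vehicle control libraries and 1.42 and 1.93 after MGH-CP1. The treated libraries held 42.3% of the vehicle level on average, the lowest share among the 39 genes. On the log2 scale the fold change was -0.89 (SE 0.13, adjusted p = 0.000811, limma), and -1.24 as a ratio of mean FPKM without the pseudocount, which here puts BRCA2 below EXO1 (-1.11). BRCA1 (ENSG00000012048, chromosome 17 from 41196312 to 41322290), a ubiquitin ligase that promotes trimming and recruits BRCA2 through PALB2, had 8.79 and 7.80 FPKM with vehicle and 4.12 and 5.13 with MGH-CP1. Its log2 fold change was -0.73 (SE 0.10, adjusted p = 0.000781, limma).

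The partners of BRCA1 moved with it. BARD1, its obligate ligase partner, had 6.91 and 5.99 FPKM with vehicle and 3.17 and 3.60 with MGH-CP1 (log2 fold change -0.76, SE 0.10). BRIP1, the helicase also called FANCJ, had 13.0 and 11.7 FPKM with vehicle and 5.85 and 6.64 with MGH-CP1 (log2 fold change -0.88, SE 0.08). BARD1 and BRIP1 were at 52.5% and 50.6% of vehicle. PALB2, the bridge between BRCA1 and BRCA2, had 5.36 and 4.86 FPKM with vehicle and 3.29 and 3.97 with MGH-CP1. Its fall of 0.40 (SE 0.10, adjusted p = 0.0112, limma) was the smallest of the 5, and it was not called without vehicle control replicate 1 (-0.34, adjusted p = 0.0600, limma) or without MGH-CP1 replicate 1 (-0.30, adjusted p = 0.0663, limma). In all 5 genes MGH-CP1 replicate 1 was below MGH-CP1 replicate 2 and vehicle control replicate 1 above vehicle control replicate 2, so the spread within conditions was shared between them.

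**Figure D2:**
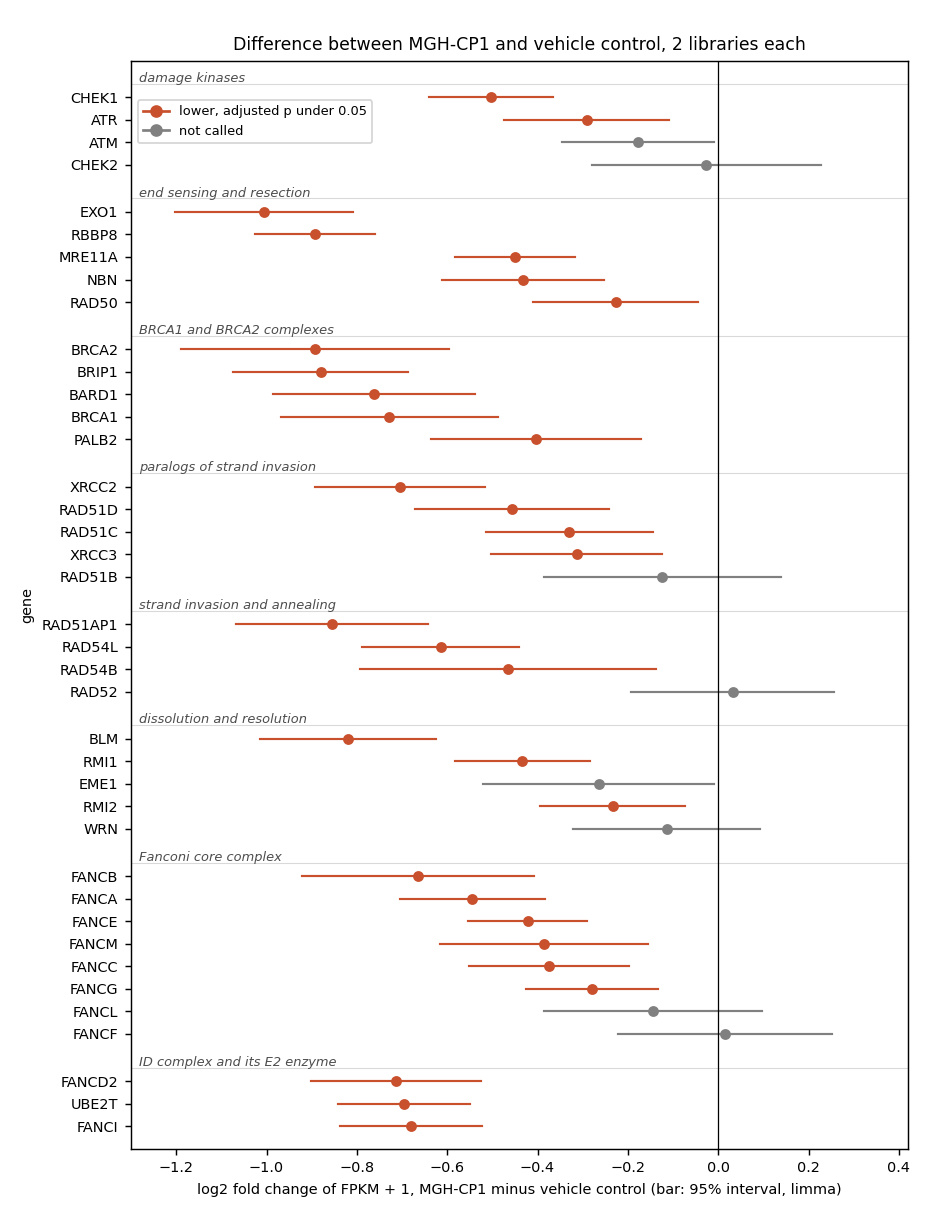
Log2 fold change of FPKM + 1 between MGH-CP1 and vehicle control (x axis, MGH-CP1 minus vehicle control, 2 libraries each) for each of the 39 genes with its 95% interval from limma; orange marks the 31 genes called lower and grey the 8 not called. The estimates run from -1.01 for EXO1 to 0.03 for RAD52, and the intervals of ATM and EME1 end just below 0 although their adjusted p missed the threshold.

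Of the 5 paralogs RAD51B, RAD51C, RAD51D, XRCC2 and XRCC3, which assist the early steps of strand invasion, 4 fell. The first 4 form a complex, and RAD51C forms another with XRCC3. XRCC2 had 9.64 and 9.56 FPKM in the vehicle control libraries and 5.12 and 5.91 with MGH-CP1, a log2 fold change of -0.70 (SE 0.08, adjusted p = 0.000284, limma). Its promoter held an E2F word. It was the only paralog that fell by at least 0.5 on the log2(FPKM + 1) scale, whereas by the ratio of mean FPKM RAD51D did so too (-0.62, beside -0.80 for XRCC2). RAD51D (ENSG00000185379) had 3.40 and 3.41 FPKM with vehicle and 2.17 and 2.25 with MGH-CP1 (log2 fold change -0.46, SE 0.09). The symbol stands on 2 entries of the table, and the other was listed at 0 in every library.

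RAD51C had 7.51 and 7.23 FPKM with vehicle and 5.99 and 5.34 with MGH-CP1 (log2 fold change -0.33, SE 0.08); without MGH-CP1 replicate 2 the value was -0.26 with an adjusted p of 0.0595 in limma. XRCC3 had 9.81 and 10.6 FPKM with vehicle and 7.48 and 8.58 with MGH-CP1 (log2 fold change -0.31, SE 0.08), and was not called without vehicle control replicate 2 (-0.26) or MGH-CP1 replicate 1 (-0.23), with adjusted p of 0.0585 and 0.0877 in limma. The conditions were apart in both genes. RAD51B had 2.38 and 2.10 FPKM with vehicle and 1.8 and 2.15 with MGH-CP1, with overlap between the conditions. Its log2 difference was -0.12 (95% interval -0.39 to 0.14), from 84 to 157 fragments per library, so a fall of the size seen in RAD51C was within the interval.

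Among 4 further genes of strand invasion and annealing, 3 fell and RAD52 stayed near its vehicle level. RAD51AP1, a stimulator of strand invasion, had 20.5 and 18.3 FPKM in the vehicle control libraries and 9.37 and 11.3 after MGH-CP1. The treated libraries were at 53.1% of vehicle, with a log2 fold change of -0.86 (SE 0.09, adjusted p = 0.000205, limma). RAD54L, a translocase that helps to open the duplex, had 10.8 and 9.71 FPKM with vehicle and 6.28 and 6.41 with MGH-CP1 (log2 fold change -0.61, SE 0.08). Its relative RAD54B was the least abundant member per length, with 2.04 and 1.98 FPKM with vehicle and 0.924 and 1.46 with MGH-CP1.

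The treated libraries of RAD54B held 51 and 79 fragments and were farther apart, relative to their level, than in the other 3 genes of the group. Its log2 fold change of -0.47 (SE 0.14, adjusted p = 0.0255, limma) was called in 1 of the 4 fits with a library left out; without vehicle control replicate 1, vehicle control replicate 2 or MGH-CP1 replicate 1 it was -0.45, -0.48 and -0.29, with adjusted p of 0.0893, 0.0677 and 0.115 (limma). RAD52, which anneals complementary strands, had 2.45 and 2.41 FPKM with vehicle and 2.44 and 2.58 with MGH-CP1. The conditions overlapped, and the log2 difference was 0.03 (95% interval -0.19 to 0.26). RAD52 overlaps ERC1 on the opposite strand, a gene whose fragments over its whole length came to 1180% of those of RAD52. Whether the counting used the strand is not given in the sources used here.

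Of the 5 genes that take joint molecules apart, BLM, RMI1 and RMI2 fell, whereas WRN and EME1 did not pass the test. The first 3 encode parts of the dissolvase, in which the BLM helicase works with a topoisomerase. BLM had 5.34 and 5.34 FPKM in the vehicle control libraries and 2.56 and 2.62 after MGH-CP1. It fell to 48.5% of vehicle with hardly any spread between replicates, with a log2 fold change of -0.82 (SE 0.08, adjusted p = 0.000166, limma). RMI1, a scaffold of the complex, had 13.7 and 12.9 FPKM with vehicle and 9.73 and 9.43 with MGH-CP1 (log2 fold change -0.43, SE 0.07), and its promoter held an E2F word. RMI2, its small partner, had 10.4 and 9.80 FPKM with vehicle and 8.25 and 8.66 with MGH-CP1.

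The fall of RMI2 was -0.23 on the log2 scale (SE 0.07, adjusted p = 0.0233, limma), and it missed the threshold without vehicle control replicate 1 (-0.19, adjusted p = 0.125, limma) or MGH-CP1 replicate 1 (-0.20, adjusted p = 0.111, limma). WRN, a helicase related to BLM, had 3.47 and 3.44 FPKM with vehicle and 3.23 and 3.01 with MGH-CP1. The libraries did not overlap, but the log2 difference was small, -0.11 (95% interval -0.32 to 0.09). EME1, the partner of the MUS81 nuclease, had 2.52 and 3.10 FPKM with vehicle and 2.12 and 2.20 with MGH-CP1, a log2 difference of -0.26 (95% interval -0.52 to -0.01) with an adjusted p of 0.0792 in limma. EME1 overlaps LRRC59 on the opposite strand, which had 4080% of the fragments of EME1.

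The Fanconi core complex is the ubiquitin ligase of the pathway, and 6 of its 8 genes fell, with a median log2 fold change of -0.38 over the 8. FANCB, an adaptor beside the catalytic subunit, had 3.34 and 3.91 FPKM in the vehicle control libraries and 1.75 and 2.08 after MGH-CP1, which put it at 52.9% of vehicle (log2 fold change -0.66, SE 0.11, adjusted p = 0.00170, limma). FANCA (ENSG00000187741, chromosome 16 from 89803957 to 89883065), a large scaffold subunit that pairs with FANCG, had 9.89 and 10.1 FPKM with vehicle and 6.35 and 6.73 with MGH-CP1 (log2 fold change -0.54, SE 0.07, adjusted p = 0.000453, limma). FANCB and FANCA were the core genes that fell by at least 0.5 on the log2(FPKM + 1) scale, and by the ratio of mean FPKM FANCM did so too (-0.53). FANCG itself had 18.3 and 19.4 FPKM with vehicle and 14.8 and 15.9 with MGH-CP1; its fall of 0.28 (SE 0.06) had an adjusted p of 0.00708 in limma and 0.0513 without MGH-CP1 replicate 1, where the value was -0.23.

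FANCE, FANCC and FANCF form the arm that holds the substrate. FANCE had 20.5 and 20.5 FPKM with vehicle and 14.8 and 15.4 with MGH-CP1 (log2 fold change -0.42, SE 0.06). FANCC had 7.17 and 7.79 FPKM with vehicle and 5.42 and 5.66 with MGH-CP1 (log2 fold change -0.37, SE 0.08). Both were apart from their controls, and FANCC was the gene with an E2F word at each of 2 places. FANCF, the adaptor that ties this arm to the rest, had 2.61 and 2.59 FPKM with vehicle and 2.85 and 2.44 with MGH-CP1. The treated libraries of FANCF lay on either side of the controls, and the log2 difference was 0.02 (95% interval -0.22 to 0.25).

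FANCM, the translocase that anchors the core complex on DNA, had 3.41 and 3.14 FPKM with vehicle and 2.14 and 2.40 with MGH-CP1. This gave a log2 fold change of -0.39 (SE 0.10, adjusted p = 0.0131, limma), and it was not called without vehicle control replicate 1 (-0.34, adjusted p = 0.0845, limma) or MGH-CP1 replicate 1 (-0.33, adjusted p = 0.0631, limma). FANCL, the catalytic subunit, had 6.36 and 6.16 FPKM with vehicle and 6.28 and 4.93 with MGH-CP1. MGH-CP1 replicate 2 was below both controls and MGH-CP1 replicate 1 lay between them, and the log2 difference was -0.14 (95% interval -0.39 to 0.10); without MGH-CP1 replicate 1 it was -0.29 with an adjusted p of 0.0485 in limma. FANCL overlaps VRK2 on the opposite strand, which had 152% of its fragments.

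The 3 genes at the centre of the Fanconi pathway, the substrates FANCD2 and FANCI and the E2 enzyme UBE2T, all fell by similar amounts. FANCD2 (ENSG00000144554, chromosome 3 from 10068098 to 10143614) had 6.44 and 6.57 FPKM in the vehicle control libraries and 3.43 and 3.73 with MGH-CP1. The log2 fold change was -0.71 (SE 0.08, adjusted p = 0.000268, limma), and its E2F word began right before the start site. FANCI, its partner in the clamp around DNA, had 18.3 and 17.9 FPKM with vehicle and 10.4 and 11.5 with MGH-CP1 (log2 fold change -0.68, SE 0.07, adjusted p = 0.000146, limma). UBE2T, which passes ubiquitin to FANCD2 through FANCL, was the most abundant member per length with 54.2 and 48.2 FPKM with vehicle and 31.2 and 31.2 with MGH-CP1. On the log2 scale the fold change was -0.70 (SE 0.06, adjusted p = 0.000101, limma), so the E2 enzyme fell by an amount within the standard errors of its substrates, while FANCL, the ligase between them, did not pass the test.

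The median log2 fold changes of the role groups were thus -0.76 for the BRCA1 and BRCA2 complexes, -0.70 for FANCD2, FANCI and UBE2T, -0.54 for strand invasion and annealing, -0.45 for end sensing and trimming, -0.38 for the core complex, -0.33 for the paralogs, -0.26 for dissolution and resolution and -0.23 for the damage kinases. With 3 to 8 genes per group, these medians describe the members and were not tested against each other. By level, all 16 members with a vehicle control mean of at least 10 FPKM fell, and 15 of the 23 members under 10 FPKM did. The shares of all genes at these levels are not reported here. At a mean of at least 5 FPKM over the libraries, 23 of 25 members and 2564 of 8439 genes were called lower. The 8 members not called had vehicle control levels between 2.24 and 7.13 FPKM. BRCA2, BLM, FANCB and FANCD2 lay in the same range and fell, as did ATR, PALB2 and FANCM. The calls of ATR, PALB2 and FANCM were lost in some fits with a library left out. The part of the level in the calls was not tested.

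**Figure D3:**
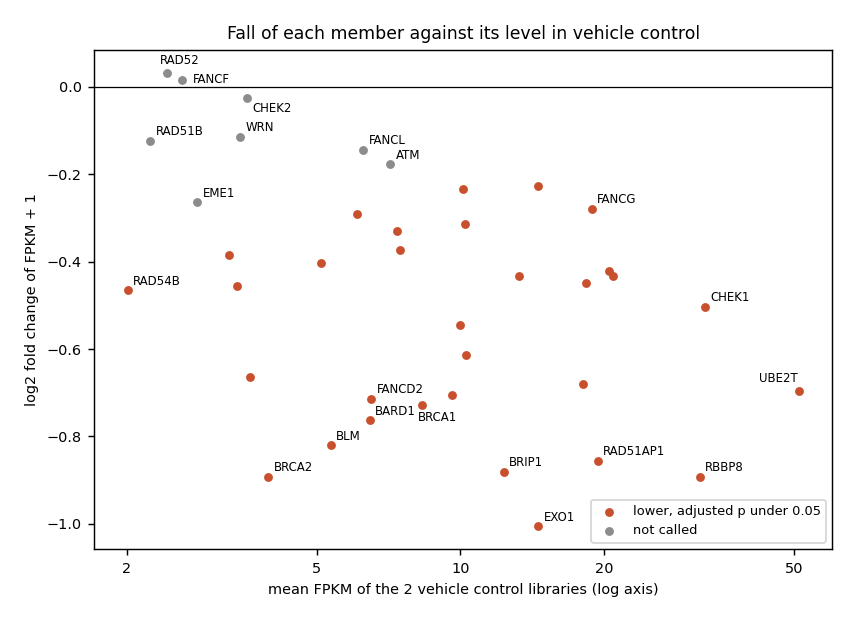
Log2 fold change of FPKM + 1 after MGH-CP1 (y axis) against the mean FPKM of the 2 vehicle control libraries (x axis, log) for the 39 genes; orange marks the 31 called lower and grey the 8 not called, and a part of the points is named. All 16 members at or above 10 FPKM fell, and the share of all genes at that level is not reported here. Members at similar levels differ widely, such as BRCA2 (-0.89) and CHEK2 (-0.03).

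Some fragments could have been shared with neighbours, because 26 members overlap another listed gene and 14 overlap a gene with at least 10% of their fragments. The percentages here and above count the neighbour's fragments over its whole length. The length of the overlaps was not measured, so the fragments open to sharing are not known. CHEK1 overlaps STT3A on the same strand, which had 356% of its fragments, RAD54L overlaps LRRC41 with 378%, and FANCI overlaps POLG, which had more fragments than FANCI. The others of the 14 beside EME1, RAD52 and FANCL were RMI2, ATM, XRCC3, CHEK2, NBN, MRE11A, FANCA and BRCA1. Of the 10 members with the largest falls on the log2(FPKM + 1) scale (EXO1, RBBP8, BRCA2, BRIP1, RAD51AP1, BLM, BARD1, BRCA1, FANCD2 and XRCC2), BRCA1 alone was among the 14. How shared fragments were assigned is not given in the sources used here.

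The rest of the pathway was read from a list of 42 further genes of recombination and crosslink repair, of which 39 passed the minimum level. In this list 19 fell and 9 rose, with a median log2 fold change of -0.16. These were 48.7% and 23.1% of the list, against 23.8% and 27.1% of all genes tested. The largest changes on the log2(FPKM + 1) scale were those of RAD18, a ubiquitin ligase of damage tolerance (-0.77, SE 0.07), and USP1, the enzyme that takes ubiquitin off FANCD2 (-0.76, SE 0.06). MUS81 and EME2 are named here for their contact with members and after their values were seen. MUS81, the nuclease that EME1 or EME2 pairs with, had 12.0 and 12.2 FPKM with vehicle and 13.8 and 14.4 with MGH-CP1 and rose by 0.20 (adjusted p = 0.0241, limma). EME2 had 0.637 and 0.761 FPKM with vehicle and 2.02 and 1.70 with MGH-CP1, or 266% of vehicle, the largest change of the list as a ratio. Its vehicle mean was under the 1 FPKM minimum, so it entered the test through its treated libraries alone, and its place among the 9 that rose is no support for a direction.

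Cell cycle markers moved with the members. All 18 S phase markers fell, with a median of -0.74 and the largest changes in RRM2 (-1.10) and TYMS (-0.94), both enzymes of nucleotide supply. All 16 markers of G2 and M phase fell too, with a median of -0.87 and the largest changes in the proliferation antigen MKI67 (-1.28) and the kinetochore protein CENPF (-1.09). The summed FPKM of the S phase markers was 1197 and 1196 with vehicle and 672 and 751 with MGH-CP1, and that of the G2 and M phase markers 1287 and 1266 with vehicle and 670 and 724 with MGH-CP1. Neither list holds a member. In bulk RNA, fewer cells in these phases and less RNA per cell cannot be told apart, and the part of the cell cycle markers in the members' falls was not tested. EXO1, RBBP8, BRCA2, BRIP1, RAD51AP1, BLM and BARD1 fell by more than the median of the S phase markers on the log2(FPKM + 1) scale, and by the ratio of mean FPKM 11 members did, with BRCA1, XRCC2, FANCB and FANCD2 in addition. On the log2(FPKM + 1) scale SLBP fell least of the S phase markers (-0.43), and the 8 members not called lay above it. So did FANCE, PALB2, FANCM, FANCC, RAD51C, XRCC3, ATR, FANCG, RMI2 and RAD50, which were called lower.

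**Figure D4:**
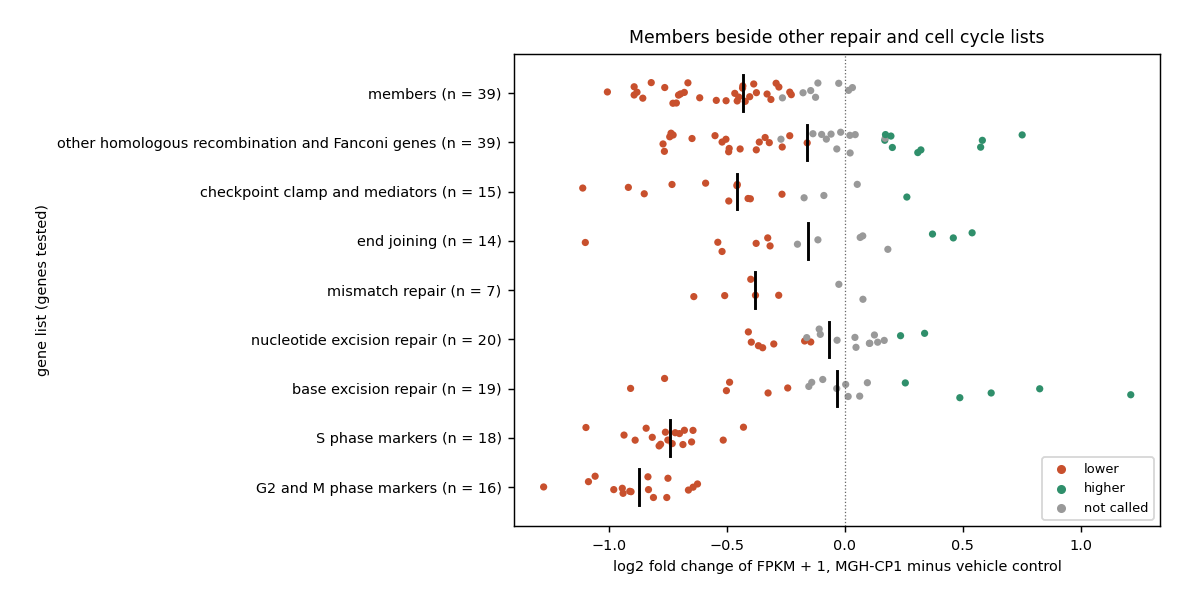
Log2 fold change of FPKM + 1 after MGH-CP1 (x axis) of each tested gene of the 39 members and of other repair and cell cycle lists (y axis), with a black bar at each list's median; orange marks genes called lower, green higher and grey not called, and the vertical position within a list is arbitrary. The members' median is -0.43, that of the checkpoint list -0.46 and that of mismatch repair -0.38. The medians of the other recombination and Fanconi genes and of end joining are both -0.16. Those of nucleotide and base excision repair are -0.07 and -0.03, and those of the S phase and of the G2 and M phase markers -0.74 and -0.87.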

How the data were processed

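Poly-T selected RNA of MDA-MB-231 cells was measured in 2 vehicle control and 2 MGH-CP1 libraries. The FPKM deposited by the authors cover 48162 genes and come with symbols, lengths and coordinates. The submitters' processing notes name CASAVA 1.8, STAR and hg19, and the counting tool, its strand setting and the annotation are not given in the sources used here. Columns named DMSO were taken as vehicle control by condition and replicate number. FPKM times length was a whole multiple of a step per library in 100% of the values (tolerance 0.01 of a fragment), which gave fragment numbers.

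Genes had to average at least 1 FPKM over the 4 libraries, which left 12080. Their log2(FPKM + 1) entered a limma fit without covariates (limma 3.58.1, R 4.3.3; lmFit, then eBayes with its trend option, which estimated 5.97 prior degrees of freedom). Tests were two-sided, adjusted by Benjamini-Hochberg over all genes tested, with a threshold of 0.05. SE and 95% intervals are limma's, the intervals without adjustment. Python 3.11.15 served for counts and promoter words. Of the fits, the main limma fit alone was tested on simulated data. There a small part of the genes changed, and by more than most members did here. Smaller changes and changes in many genes were not simulated.

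The members and all lists were chosen with earlier results of these data known. All members are named, and from each other list at most the 2 called genes with the largest change, apart from MUS81 and EME2, which are said to lie outside this rule, and SLBP, the end of a list's range. PECAM1, a marker of another cell type, was not matched, and values of some list genes are not reported here. The alternatives changed the pseudocount (0.1), the filter (none, or a mean of 5 FPKM), the scaling (median ratio, quantile), the fit (replicate number as a block, no trend, per-gene test, voom on fragments), the depth (thinned to equal totals), the threshold (adjusted p of 0.01, or a log2 fold change of 0.5 in addition) and the libraries, each of which was left out in turn.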

Additional observations from a re-analysis of the deposited data

How the results depend on the processing

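The number of members called lower was between 22 (no filter on low values) and 33 (quantile normalization) under the scalings, filters, pseudocount, voom, thinning and omission of each library (24 to 29), and 0 members were called higher under any setting. With the replicate number as a block it was 31; same-numbered libraries deviated together with a correlation of 0.0777 over 12080 genes, which does not show pairing, and the block left the calls of all 39 members as they were, with 3052 genes lower and 3466 higher. Requiring a log2 fold change of at least 0.5 left 16 members lower, and 744 genes lower and 1261 higher of all genes. The per-gene test without shared variance called 0 members, 0 genes of each role group and of each other list in either direction, and 4 genes lower and 9 higher of all genes. Without the filter 1844 of 24878 genes were called lower, with 1 damage kinase, 3 end sensing and resection genes, 2 of the 5 paralogs, 11 of the other recombination genes (5 higher), 0 checkpoint genes higher, and 3 nucleotide excision repair genes lower and 0 higher; more genes were tested there. At a mean FPKM of at least 5, the BRCA1 and BRCA2 complexes kept 2 tested genes, both called, and 1 nucleotide and 3 base excision repair genes were higher. Quantile normalization called 3221 of 12080 genes lower and left 1 nucleotide excision repair gene higher. The fit without the trend also left 1 such gene higher, with 5 of the other recombination genes higher. With each library left out, the damage kinases called lower were 1 to 2, the other recombination genes called higher 3 to 6, checkpoint genes higher 0 to 1, nucleotide excision repair genes lower 4 to 6 and higher 0 to 2. The members' median was -0.49 at a pseudocount of 0.1, -0.48 with quantile normalization and -0.50 with voom. ATM (quantile normalization, voom) and EME1 (quantile normalization) passed the threshold there. Causes were not tested. With 2 libraries per condition and 51 fragments in the sparsest case, small differences at low FPKM could not be resolved.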

Other observations

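Genes of 5 other repair and checkpoint lists were counted in the same way, with changes on the log2(FPKM + 1) scale. Of all genes tested, 23.8% fell and 27.1% rose. In the list of checkpoint clamp, mediator and further checkpoint and break signalling genes, 11 of 15 fell and 1 rose. The median log2 fold change of this list was -0.46. The largest falls on that scale were those of CLSPN, the mediator that brings CHEK1 to ATR (24.0 and 22.5 FPKM with vehicle, 9.25 and 11.3 with MGH-CP1, log2 fold change -1.11), and of H2AFX, the histone variant that marks DNA breaks (168 and 173 FPKM with vehicle, 87.8 and 92.3 with MGH-CP1, log2 fold change -0.92). In both genes the conditions were apart. Of 7 mismatch repair genes 5 fell and 0 rose, among them MSH6 (-0.51), a subunit of the mismatch recognition complex.

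Of 14 end joining genes 6 fell and 3 rose. PRKDC, the catalytic kinase of end joining, had 36.1 and 36.6 FPKM with vehicle and 15.0 and 18.0 with MGH-CP1 (log2 fold change -1.10), whereas POLL, a gap-filling polymerase, rose from 5.04 and 4.52 FPKM to 7.19 and 7.59 (0.54). Nucleotide excision repair had 7 of 20 genes lower and 2 higher, with ERCC2 (-0.41) and ERCC8 (-0.40) among those that fell. Base excision repair had 6 of 19 genes lower and 5 higher, and its glycosylases NEIL1 (1.21) and NEIL3 (-0.91) moved in opposite directions; NEIL1 had 0.997 and 1.14 FPKM with vehicle and 4.01 and 3.57 with MGH-CP1. Over the 4 repair routes without the checkpoint list, 24 of 60 tested genes fell and 10 rose, and with the checkpoint list 35 of 75 fell and 11 rose. Differences between these lists and the 39 members were not tested.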
